A study of Mus musculus with 6 samples.

Results

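Dab2, Folr2, Cbr2, F13a1, Ednrb, Igf1, Egfl7, Cp and Wwp1 are genes by which macrophages at the borders of the brain are told apart from microglia, and their levels were compared between old and young mice. The 9 genes were taken by name, all 9 were found among the 35598 gene identifiers listed, and all 9 passed the filter on low counts. The series holds 6 RNA sequencing libraries of central nervous system-associated macrophages (CAMs) from brains of male C57BL/6 mice. Its 3 aged libraries came from mice of 18 months and its 3 young libraries from mice of 2 months, with no other treatment, allele or transgene named in the labels. Cells had been sorted as CD3-CD11b+CD45+CD206+, so the gate used the product of Mrc1 (CD206) but of none of the 9 genes. Whether libraries of an age came from separate animals is not in the labels, so each p-value rests on library-to-library spread that may be technical alone.

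CAMs sit in the perivascular spaces, the meninges and the choroid plexus, where they take up proteins, lipids and debris from blood and cerebrospinal fluid. They share many macrophage genes with microglia, and are set apart by scavenging and uptake receptors and by a set of secreted proteins and enzymes. Among the 9 genes, Dab2, Ednrb and Folr2 encode an uptake adaptor and 2 surface receptors. Igf1 and Egfl7 encode secreted signals, and Cbr2, F13a1, Cp and Wwp1 encode enzymes. None of them is unique to CAMs: Egfl7 is best known from endothelium, Ednrb also from astrocytes and endothelium, Cp from astrocytes and F13a1 from monocytes and platelets.

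The libraries held 30044365 to 32902652 counts in the aged group and 26605079 to 33306121 in the young group. The 10 markers that define border macrophages, with Mrc1 among them, summed to 15290.4, 6395 and 12778 CPM (counts per library size, scaled by the TMM method) in aged libraries, against 24587, 26685 and 23168 CPM in young ones. Markers of microglia, 15 genes, summed to 11455, 18652 and 14920.0 CPM in aged libraries, against 7860.4, 6029 and 8659.9 CPM in young ones. Neither sum overlapped between the ages, the microglial sum was the larger of the 2 in aged replicates 2 and 3, and their part in the results on the 9 genes was not tested. Single markers did not all follow the sums. Pf4 was the largest of the border macrophage markers in every library. It lay lower in every aged library, as did Mrc1, Ms4a7, Lyve1, Clec10a and Maf, while Cd163, Stab1, Clec12a and Siglec1 overlapped. Of the microglial markers, Sall1, Gpr34, Fcrls, Tgfbr1, Sall3 and the nearly absent Ccr6 overlapped, and the others lay higher in every aged library. Erythroid markers (8 genes, 85.8 to 9863 CPM in aged and 10100.3 to 30362 CPM in young libraries) and neuron markers (12 genes, 10.1 to 32.8 CPM in aged and 40.5 to 128 CPM in young libraries) also lay lower in every aged library. Oligodendrocyte markers (12 genes, 204 to 426 CPM in aged and 158 to 187 CPM in young libraries) and B and plasma cell markers (9 genes, 201 to 236 CPM in aged and 159 to 197 CPM in young libraries) lay higher in every aged library. Aged replicate 3 stood apart with 25.8 CPM of neutrophil markers, where the other 5 libraries had 7761 to 37508 CPM. The gate gene Mrc1 averaged 1611 ± 639 CPM in aged and 2795 ± 135 CPM in young libraries (SD, n = 3 each), a log2 fold change of -0.79 with SE 0.32 (edgeR adjusted p = 0.817). Ptprc (CD45) averaged 385 ± 180.4 CPM in aged and 317 ± 14.8 CPM in young libraries, and Itgam (CD11b) 81.7 ± 22.1 and 82.9 ± 15.2 CPM in the same order.

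**Figure D1:**
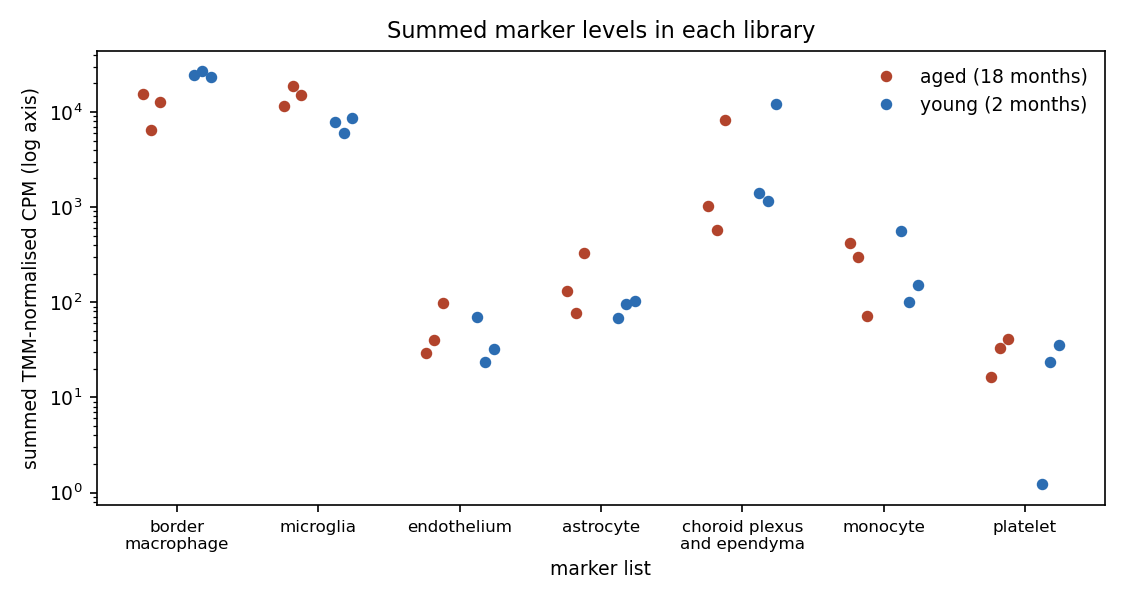
Summed TMM-normalised CPM of marker lists (log axis) in each of the 3 aged and 3 young libraries, 1 point per library. The border macrophage sum lies at 15290.4 CPM or less in aged and at 23168 CPM or more in young libraries, the microglia sum lies higher in every aged library, and the endothelial, astrocyte, choroid plexus, monocyte and platelet sums overlap between the ages.

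The 9 genes split by age into a lower set and an overlapping set. Dab2, Ednrb, Egfl7, Igf1 and Wwp1 had all 3 aged libraries below all 3 young ones (5 of 9 genes), while Folr2, Cbr2, F13a1 and Cp overlapped between the ages. Among all 10661 genes tested, 7.19% lay lower in every aged library and 7.54% higher, and among the 2189 genes averaging 50 CPM or more 8.45% lay lower and 11.2% higher. At an adjusted p under 0.05, edgeR's quasi-likelihood test called 0 of the 9 genes, and its background was 1 gene higher (0.00938% of genes tested) and 0 lower (0%). At an unadjusted p under 0.05 the same test had 5 of the 9 genes, all lower in aged libraries, against 218 of all genes lower (2.04%) and 387 higher (3.63%). That count of 5 fell whichever library was left out, in fits that also had fewer libraries from which to estimate spread. It was 2 without any one of the young libraries, 3 without aged replicate 2 or 3, and 4 without aged replicate 1. The DESeq2 Wald test called 2 of them lower, Dab2 and Ednrb (0.385% of all genes were called lower), and limma-voom called 0. The median log2 fold change of the 9 genes was -0.95, and that of all genes tested was -0.02. The 9 genes were chosen with earlier results of these libraries known, so these counts describe them and are no evidence of a direction. In bulk RNA, fewer cells of a type and less RNA per cell cannot be told apart.

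**Figure D2:**
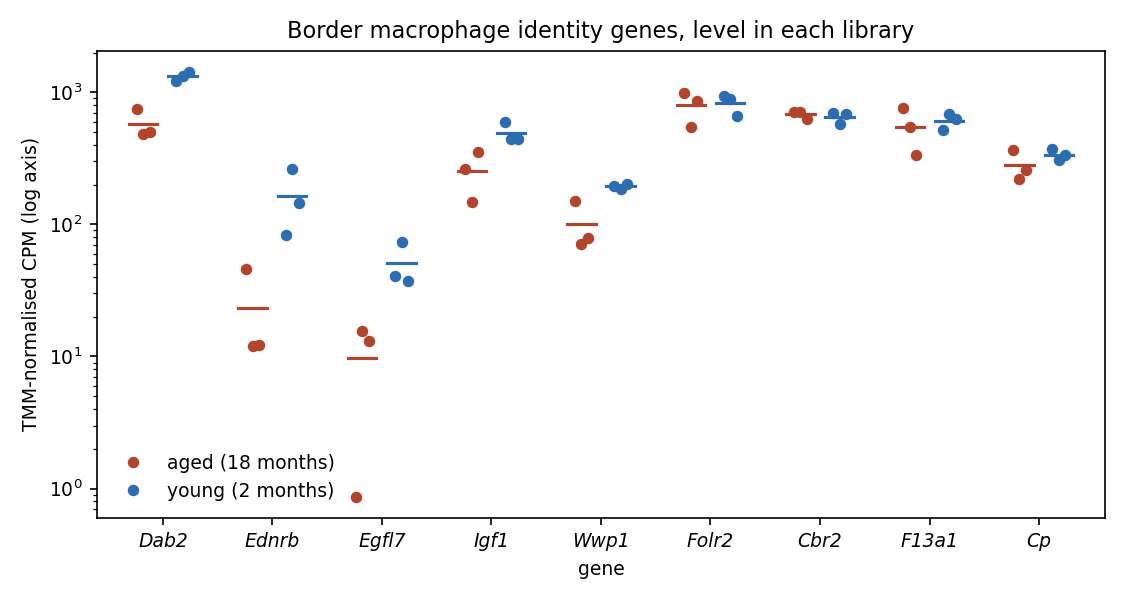
TMM-normalised CPM (log axis) of the 9 genes in each library, aged left of young, with 1 point per library and a line at the mean of 3. The aged points lie below all young points for Dab2, Ednrb, Egfl7, Igf1 and Wwp1, and overlap with them for Folr2, Cbr2, F13a1 and Cp.

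Dab2 encodes an endocytic adaptor that links receptors of the LDL receptor family to clathrin. The gene (ENSMUSG00000022150.16) spans 6299788 to 6440712 on chromosome 15 of mm10. It was counted at 747, 483 and 499 CPM in the aged libraries, against 1212, 1328 and 1426 CPM in the young ones. The highest aged library thus lay well under the lowest young one. The means were 576 ± 148 CPM in aged and 1322 ± 107 CPM in young libraries (SD, n = 3 each, 2.29-fold lower in aged). On the log2 scale the difference was -1.20 with SE 0.30 and a 95% interval of -1.86 to -0.53 (edgeR adjusted p = 0.546, unadjusted p = 0.00257). By p-value Dab2 ranked 48 among all genes tested. In TPM, a transcript abundance that also divides by length, it was at 196, 154 and 88.2 in aged libraries, against 172, 278 and 305 in young ones. On that scale the ages overlapped, since young replicate 1 lay below aged replicate 1.

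The overlap went with the transcript length behind the TPM. The deposited length of a gene is an average over its transcripts and differs between libraries. For Dab2 it was 1838, 2304 and 2656 nucleotides in aged libraries, against 2988, 2226 and 2182 in young ones. Its longest value was 1.63 times its shortest, against a median of 1.12 times over the 2189 genes averaging 50 CPM or more. Dab2 has 14 annotated transcripts of 368 to 4663 nucleotides. Of the 9 genes, Cp alone had lengths that did not overlap between ages, with 2259, 2405 and 2678 nucleotides in aged and 1944, 2066 and 2199 in young libraries. Such a separation, in either direction, was found in 11.4% of the 2189 genes.

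Ednrb had the widest gap of the receptors. It encodes the endothelin receptor type B, a G protein-coupled receptor that also clears endothelins from the surroundings. The gene (ENSMUSG00000022122.15) lies on chromosome 14 from 103814625 to 103844402. It was counted 1312, 467 and 348 times in aged libraries, against 2618, 7128 and 4021 times in young ones. In CPM these were 45.6, 12.1 and 12.3 in aged, against 83.8, 265 and 144 in young libraries. Both groups spread widely, and aged replicate 1 lay closest to the young range. The means were 23.3 ± 19.3 CPM in aged and 164 ± 92.5 CPM in young libraries (SD, n = 3 each), 7.04-fold lower in aged. Its log2 fold change was -2.82, SE 0.69, with a 95% interval of -4.36 to -1.27 (edgeR adjusted p = 0.546, unadjusted p = 0.00239). It was -3.74 without aged replicate 1. Ednrb was called with no filter on low counts (adjusted p = 0.00235, where 0.0485% of genes were called lower) and when edgeR was run on genes averaging 50 CPM or more (adjusted p = 0.031, 0.275% called lower). In TPM, too, the aged libraries (7.18, 2.77 and 1.69) lay below the young ones (11, 29.4 and 17.6). A TPM without overlap, lower in aged, was found for 3 of the 9 genes (Ednrb, Egfl7 and Wwp1) and for 3.89% of 9351 genes averaging 1 TPM or more. Astrocyte markers summed to 77.3 to 331 CPM in aged and 68.3 to 102 CPM in young libraries. Endothelial markers summed to 29.5 to 98.7 and 23.5 to 69.2 CPM in the same order. Both sums overlapped between the ages, and their part in the Ednrb values was not tested.

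Folr2, the folate receptor beta held on the cell surface by a lipid anchor, did not separate by age. The gene (ENSMUSG00000032725.10) lies on chromosome 7 from 101839988 to 101857194. It was at 981, 549 and 858 CPM in aged libraries, against 933, 889 and 663 CPM in young ones. The highest and the lowest value both came from aged libraries. The means were 796 ± 223 CPM in aged and 828 ± 145 CPM in young libraries (SD, n = 3 each). Its log2 fold change was -0.06, and the 95% interval from -0.77 to 0.66 allows a change of moderate size in either direction (edgeR adjusted p = 0.997). In TPM it was at 542, 483 and 482 in aged, against 482, 482 and 341 in young libraries, where the aged values lay higher by a narrow margin. On log2(TPM + 1) its fold change was 0.22, and so was the median of all genes. How many genes lay higher without overlap in TPM was not counted. The antisense gene Gm10602 overlaps Folr2, and the kit does not mark strand, but Gm10602 took 2133.55 reads in the aged libraries together, against 73731.35 for Folr2. In the young libraries it took 1638.95 reads, against 71555.05 for Folr2.

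Igf1, a growth factor gene also active in other macrophages, was lower in each aged library. The gene (ENSMUSG00000020053.18) lies on chromosome 10 from 87858265 to 87937042. It was at 261, 147 and 354 CPM in aged libraries, against 592, 441 and 441 CPM in young ones. The gap between the ages was narrow beside the spread among the aged libraries. The means were 254 ± 103 CPM in aged and 492 ± 87.2 CPM in young libraries (SD, n = 3 each). Its log2 fold change was -0.95 (SE 0.37, 95% interval -1.79 to -0.12, edgeR adjusted p = 0.797). In TPM the ages overlapped, with 100.1, 87.1 and 156 in aged and 209, 139 and 154 in young libraries.

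Egfl7 encodes a secreted protein with EGF-like domains, and its transcription unit carries the microRNA gene Mir126a. The gene (ENSMUSG00000026921.20) lies on chromosome 2 from 26580014 to 26593120. It was counted with 25, 602 and 369 reads in aged libraries, against 1265, 1985 and 1048 in young ones. In CPM these were 0.869, 15.6 and 13 in aged, against 40.5, 73.9 and 37.5 in young libraries. Aged replicate 1 stood far below all others. The means were 9.84 ± 7.87 CPM in aged and 50.6 ± 20.2 CPM in young libraries (SD, n = 3 each). The log2 fold change was -2.36 (SE 1.03, 95% interval -4.68 to -0.05, edgeR adjusted p = 0.861). Without aged replicate 1 it was -1.81. Exons of Agpat2 overlap those of Egfl7 on the opposite strand. Agpat2 took 1632 reads in aged and 1170 in young libraries, against 996 and 4298 for Egfl7, so part of the Egfl7 reads is uncertain, most of all in aged libraries. The 16 endothelial markers summed to 29.5, 39.7 and 98.7 CPM in aged libraries, against 69.2, 23.5 and 32.2 CPM in young ones, and overlapped. Of those markers, Pecam1, which some leukocytes also express, was at 12, 14.8 and 8.7 CPM in aged libraries, against 16.3, 20.9 and 20.0 CPM in young ones. Pecam1 was thus lower in every aged library, as Egfl7 and 7.19% of all genes tested were. Slc2a1, Itm2a and Flt1 reached 36.9, 31.8 and 16.2 CPM in aged replicate 3, and 12.8, 17.6 and 10.2 CPM in young replicate 1. The defining marker Cldn5 was at 0 counts in all 3 aged libraries and at 137, 3 and 0 counts in young ones, and Cdh5 was at 7 counts or fewer in every library. The part of endothelial RNA in the Egfl7 values was not tested.

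Cbr2, an NADPH-dependent carbonyl reductase, differed less between libraries in CPM than the other 8 genes did. The gene (ENSMUSG00000025150.10) lies on chromosome 11 from 120729489 to 120732114. It was at 710.2, 715 and 629 CPM in aged libraries, against 696, 574 and 684 CPM in young ones. The means were 685 ± 48.6 CPM in aged and 651 ± 67.1 CPM in young libraries (SD, n = 3 each). On the log2 scale the difference was 0.07, with a 95% interval from -0.53 to 0.67 (edgeR adjusted p = 0.997). Its TPM varied more, with 625, 908 and 512 in aged libraries, against 575, 549 and 569 in young ones, and overlapped as well.

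F13a1 encodes the A subunit of coagulation factor XIII, a transglutaminase that crosslinks fibrin. The gene (ENSMUSG00000039109.16) lies on chromosome 13 from 36867178 to 37050244. It was at 759, 548 and 336 CPM in aged libraries, against 515, 681 and 629 CPM in young ones. The aged libraries held both its highest and its lowest value. Its log2 fold change was -0.15 (SE 0.35, 95% interval -0.93 to 0.63, edgeR adjusted p = 0.997). Monocyte markers (10 genes) summed to 421, 302 and 71.2 CPM in aged libraries, against 564, 99.6 and 152 CPM in young ones. Platelet markers (10 genes) reached at most 41.1 CPM in any library, and 2 of the 10, Gp1ba and Tubb1, were at 0 counts throughout. The most counted of them, Ppbp, had 154, 454 and 548 reads in aged libraries, against 34, 476 and 455 in young ones, and Clec1b had 257, 230 and 480, against 0, 91 and 234. The part of monocyte and platelet RNA in the F13a1 values was not tested.

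Cp encodes ceruloplasmin, a copper-containing ferroxidase that helps iron leave cells. The gene (ENSMUSG00000003617.16) lies on chromosome 3 from 19957054 to 20009145. It was at 365, 222 and 256 CPM in aged libraries, against 369.8, 308 and 337 CPM in young ones. A single aged library, replicate 1, reached the young range. The log2 fold change was -0.27 (SE 0.32, 95% interval -0.98 to 0.44, edgeR adjusted p = 0.993). Hps3 overlaps Cp on the opposite strand and took 3366.88 reads in aged libraries, against 26293.12 for Cp. In young libraries Hps3 took 1471 reads, against 29253 for Cp, so part of the Cp reads is uncertain, more so in aged libraries. Choroid plexus and ependymal markers, led by Ttr, summed to 1023, 579 and 8291 CPM in aged libraries, against 1406, 1153 and 12099 CPM in young ones, and astrocyte markers to 132, 77.3 and 331 CPM, against 68.3, 95.3 and 102 CPM. Their part in the Cp values was not tested.

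Wwp1 encodes a ubiquitin ligase of the NEDD4 family. The gene (ENSMUSG00000041058.15) lies on chromosome 4 from 19608303 to 19708993. It was at 150.4, 71 and 79.2 CPM in aged libraries, against 197, 186 and 203 CPM in young ones. The young libraries lay close together and the aged ones spread below them. The means were 100.2 ± 43.7 CPM in aged and 195 ± 8.49 CPM in young libraries (SD, n = 3 each). On the log2 scale the difference was -0.96 (SE 0.40, 95% interval -1.86 to -0.07, edgeR adjusted p = 0.839). In TPM the ages did not overlap either, with 10.1, 7.88 and 5.74 in aged and 12, 12.1 and 13.5 in young libraries.

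**Figure D3:**
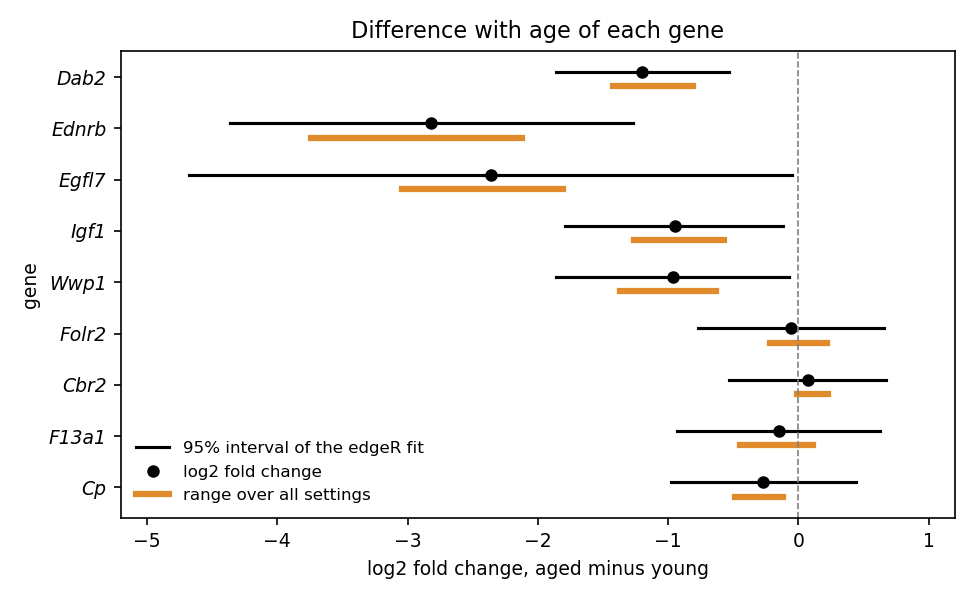
Log2 fold change of aged minus young for the 9 genes, with the 95% interval of the edgeR fit (black) and the range of the estimate over all settings tried (orange). The intervals of Dab2, Ednrb, Egfl7, Igf1 and Wwp1 lie below 0 before adjustment for the number of genes tested, and those of Folr2, Cbr2, F13a1 and Cp span 0.

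Per transcript length, Cbr2 and Folr2 led the order in both ages. In aged libraries the means ran Cbr2 (682 ± 204 TPM), Folr2 (502 ± 34.4), Dab2 (146 ± 54.5), Igf1 (114 ± 36.7), F13a1 (80.1 ± 36.1), Cp (64.2 ± 16.5), Egfl7 (15.3 ± 12.6), Wwp1 (7.91 ± 2.18) and Ednrb (3.88 ± 2.91; SD, n = 3). Only the steps between Folr2 and Dab2 and between Cp and Egfl7 had ranges that did not overlap. In young libraries they ran Cbr2 (565 ± 13.6 TPM), Folr2 (435 ± 81.2), Dab2 (252 ± 70.3), Igf1 (167 ± 37.3), Cp (76.3 ± 7.32), F13a1 (73.2 ± 13.9), Egfl7 (68.9 ± 39.1), Ednrb (19.3 ± 9.31) and Wwp1 (12.5 ± 0.859; SD, n = 3). There the steps from Cbr2 to Folr2, Folr2 to Dab2, Igf1 to Cp and Egfl7 to Ednrb had ranges without overlap. Ednrb was thus the last of the 9 in aged libraries and stood ahead of Wwp1 in young ones, though these neighbours overlapped in both ages. By mean TPM over all listed genes, Ednrb ranked 5861 in aged and 2081 in young libraries, and Cbr2 228 and 258 in the same order.

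**Figure D4:**
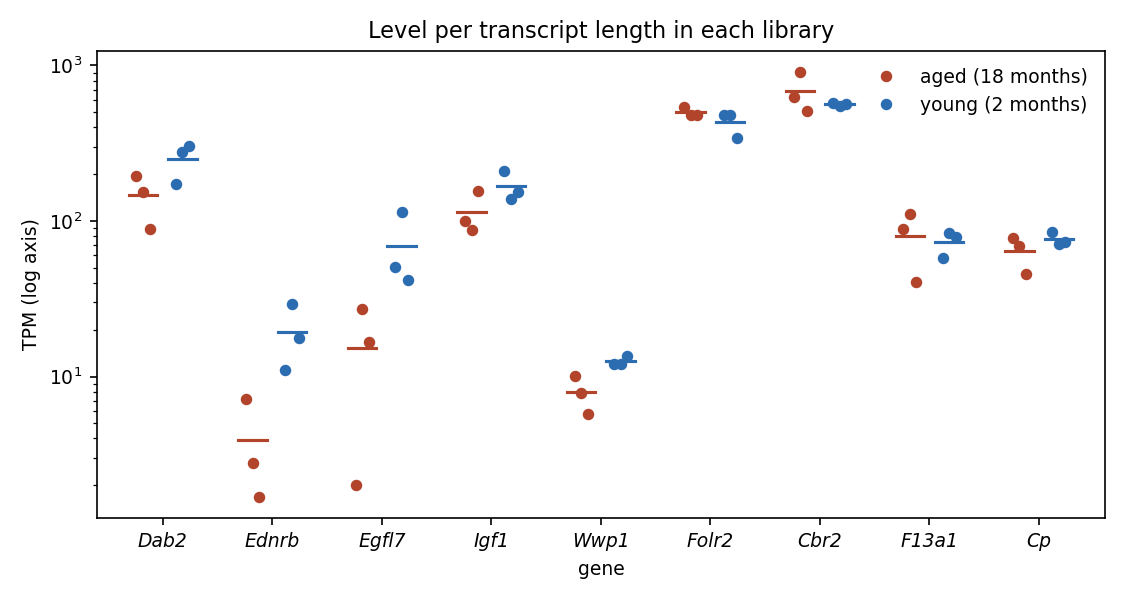
TPM (log axis) of the 9 genes in each library, aged left of young, with 1 point per library and a line at the mean of 3. Cbr2 and Folr2 lie highest in both ages, Dab2 and Igf1 overlap between ages on this scale, Ednrb, Egfl7 and Wwp1 lie lower in every aged library, and Folr2 lies higher by a narrow margin.

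Set against Mrc1 within the same library, a ratio that no library scaling can alter, the 9 genes differed in direction. Ednrb had a log2 ratio of reads to Mrc1 of -5.68, -6.61 and -6.73 in aged libraries, against -5.05, -3.47 and -4.22 in young ones. Dab2 had -1.65, -1.29 and -1.39 in aged, against -1.19, -1.15 and -0.91 in young libraries. Both lay lower in every aged library, a separation found in 0.644% of the 2175 genes that averaged 50 CPM or more and had reads in all libraries. Egfl7, under that level, lay lower as well, by -2.24 on average and by -0.59 without aged replicate 1. For Dab2 it did not hold per length: the difference between the age means was -0.36 in reads and 0.06 in TPM. Folr2 had -1.26, -1.11 and -0.61 in aged, against -1.57, -1.72 and -2.01 in young libraries. Cbr2 had -1.72, -0.73 and -1.05 in aged, against -1.99, -2.36 and -1.97 in young libraries. Folr2, Cbr2, F13a1 and Cp all lay higher in every aged library on this scale, but so did 35.0% of the 2175 genes. Igf1 and Wwp1 overlapped between the ages relative to Mrc1, with mean differences of -0.16 and -0.18 in reads that turned to 0.31 and 0.18 in TPM. Every TPM ratio also carries the length of Mrc1, which was 3174, 3806 and 2933 nucleotides in aged, against 2501, 2725 and 2630 in young libraries, without overlap.

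**Figure D5:**
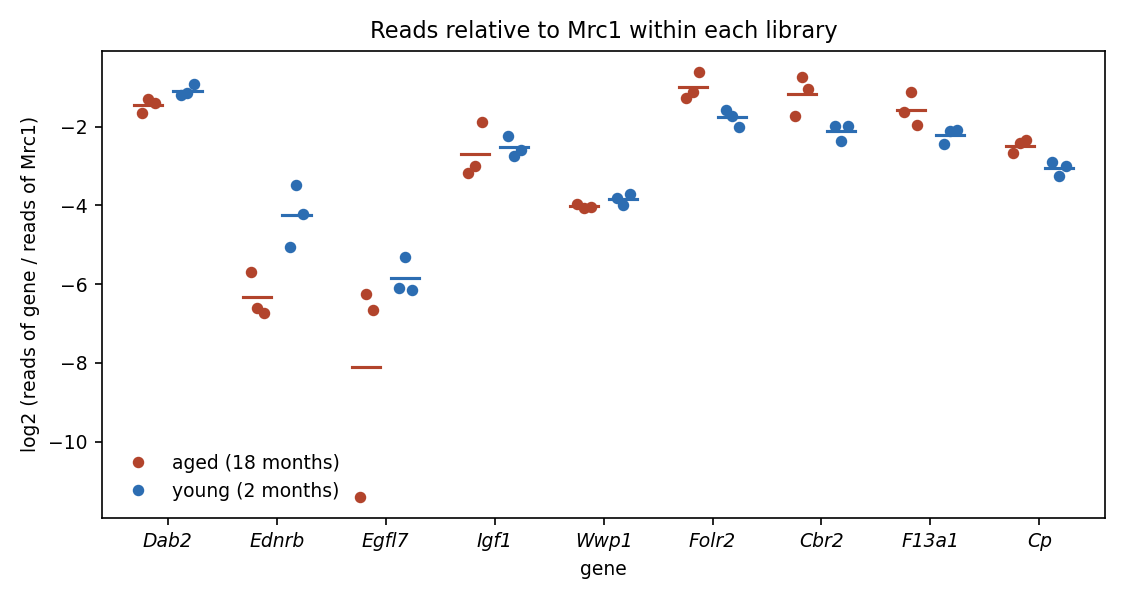
Log2 ratio of the reads of each gene to those of Mrc1 in the same library, aged left of young, with 1 point per library and a line at the mean of 3. Dab2, Ednrb and Egfl7 lie lower in every aged library, Folr2, Cbr2, F13a1 and Cp higher, and Igf1 and Wwp1 overlap.

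The lower and the overlapping genes were also set against each other, a pairing picked with their values known and so given with no test. The log2 ratio of Dab2 to Folr2 reads was -0.39, -0.19 and -0.78 in aged libraries, against 0.38, 0.58 and 1.11 in young ones. In every aged library Folr2 took more reads than Dab2, and in every young library fewer. In TPM the difference was of like size (-1.04, against -1.14 in reads), but the ages overlapped by the narrow margin of aged replicate 1 (-1.47) and young replicate 1 (-1.48). The log2 ratio of Ednrb to Cbr2 was -3.96, -5.88 and -5.68 in aged, against -3.05, -1.11 and -2.25 in young libraries, and did not overlap in TPM either.

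RefSeq promoter windows (build GRCm38.p6) were searched to see what Dab2 and Ednrb, which were lower in aged libraries, and Folr2 and Cbr2, which overlapped, have in common at their starts. The table held 14 windows for 8 of the 9 genes, each from 250 bases before to 50 after a start. Both strands were searched for GAGGAA, the core of sites for the myeloid factor PU.1, for TGCTGA, a core of sites for MAF factors, for CACGTG, the E-box of MITF and TFE factors, and for TGANTCA, the AP-1 site. Dab2 has 2 windows, chr15:6299539-6299838 and chr15:6386498-6386797, both on the plus strand. Folr2 has 2, chr7:101857141-101857440 and chr7:101845282-101845581, and Ednrb and Cbr2 have 1 each, chr14:103843652-103843951 and chr11:120731972-120732271, all 4 on the minus strand. The windows are printed 5′ to 3′ along the gene, with every match to the 4 motifs on either strand in capitals.
Dab2 upstream start: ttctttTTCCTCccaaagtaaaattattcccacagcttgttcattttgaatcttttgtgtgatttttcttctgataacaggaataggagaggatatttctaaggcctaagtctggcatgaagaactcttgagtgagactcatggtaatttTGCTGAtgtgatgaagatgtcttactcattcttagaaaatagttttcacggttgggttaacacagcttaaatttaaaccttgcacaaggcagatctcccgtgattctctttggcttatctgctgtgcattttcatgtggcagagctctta
Dab2 downstream start: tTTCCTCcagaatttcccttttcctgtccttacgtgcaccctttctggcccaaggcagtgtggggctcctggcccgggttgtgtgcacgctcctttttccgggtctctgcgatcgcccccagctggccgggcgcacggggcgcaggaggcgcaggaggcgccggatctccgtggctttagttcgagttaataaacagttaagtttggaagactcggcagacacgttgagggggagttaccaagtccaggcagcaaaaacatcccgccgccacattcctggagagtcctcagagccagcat
Ednrb: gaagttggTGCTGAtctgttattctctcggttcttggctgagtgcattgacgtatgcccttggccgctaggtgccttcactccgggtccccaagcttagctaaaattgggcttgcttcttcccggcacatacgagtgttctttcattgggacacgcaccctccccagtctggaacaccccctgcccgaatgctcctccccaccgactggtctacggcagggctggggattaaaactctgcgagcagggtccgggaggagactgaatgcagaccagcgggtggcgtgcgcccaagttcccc
Folr2 upstream start: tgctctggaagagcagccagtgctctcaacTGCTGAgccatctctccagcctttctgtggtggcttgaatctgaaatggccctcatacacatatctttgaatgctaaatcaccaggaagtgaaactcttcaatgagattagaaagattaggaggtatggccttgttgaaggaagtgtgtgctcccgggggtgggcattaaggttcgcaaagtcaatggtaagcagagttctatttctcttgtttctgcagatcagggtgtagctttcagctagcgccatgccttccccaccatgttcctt
Folr2 downstream start: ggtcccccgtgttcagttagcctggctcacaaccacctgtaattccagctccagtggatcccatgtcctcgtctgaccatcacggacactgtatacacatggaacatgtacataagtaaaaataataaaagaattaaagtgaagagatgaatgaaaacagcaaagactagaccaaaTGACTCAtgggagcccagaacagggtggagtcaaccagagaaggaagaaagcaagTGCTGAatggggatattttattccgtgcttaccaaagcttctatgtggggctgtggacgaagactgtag
Cbr2: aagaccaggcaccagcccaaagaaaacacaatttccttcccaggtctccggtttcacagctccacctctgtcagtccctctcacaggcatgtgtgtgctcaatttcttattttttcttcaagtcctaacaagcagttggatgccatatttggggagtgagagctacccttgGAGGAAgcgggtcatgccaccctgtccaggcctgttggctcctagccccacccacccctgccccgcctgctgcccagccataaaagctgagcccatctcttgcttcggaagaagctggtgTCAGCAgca
TGCTGA was found in 5 of these 6 windows, but in only 6 of the 14 windows of the 8 genes. It was found in 19.5% of all 32817 windows of the table. It stood in windows of each of the 4 genes, so its presence did not follow the split by age. GAGGAA was found in 3 of the 6, both of Dab2 and that of Cbr2, and in 7 of the 14, against 28.3% of all windows. TGANTCA was found in 1 of the 6, the downstream start of Folr2, and in 3 of the 14 (7.81% of all windows). CACGTG was found in none of the 14 (7.15%). No match overlapped another. A match says only that the letters are there, and the files do not show which start these cells used.

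Of 38 other border macrophage identity genes, the gate gene Mrc1 among them, 11 lay lower in every aged library and 6 higher, where the shares over all genes tested were 7.19% and 7.54%. Their median log2 fold change was -0.29 (-0.15 without young replicate 1), between that of the 9 genes and that of all genes tested. The edgeR test called 0 of them. At an unadjusted p under 0.05 it had 9 lower and 1 higher (2.04% and 3.63% of all genes). DESeq2 called 3 lower, Slc40a1, Ccl24 and Cd200r1 (0.385% of all genes). Unfiltered, edgeR called Pf4, Ccl24 and Cd200r1 lower (0.0485% of all genes), and among genes averaging 50 CPM or more Pf4 and Ccl24 (0.275%). Pf4, a chemokine gene, averaged 4772 ± 2369 CPM in aged and 12703 ± 1185 CPM in young libraries (SD, n = 3 each), and Ms4a7, a membrane protein gene, 2873 ± 1401 and 5488 ± 249 CPM in the same order. Cd163, a haemoglobin scavenger receptor, overlapped between the ages, with means of 193 CPM in aged and 196 CPM in young libraries. Lyve1, a hyaluronan receptor, averaged 172 CPM in aged and 283 CPM in young libraries, without overlap. The 6 genes higher in every aged library were Cd209d, Cd209b, Lilra5, Timd4, Cd38 and Ctsc. Of these, the lectin gene Cd209d averaged 115 CPM in aged and 2.54 CPM in young libraries (log2 fold change 5.50, SE 1.96), and it was the one gene of the list higher at an unadjusted p under 0.05. Timd4, a receptor for phosphatidylserine, averaged 168 CPM in aged and 84.8 CPM in young libraries.

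Dab2 works with the clathrin coat, and genes of that machinery lay on both sides. Of 25 tested genes of clathrin endocytosis, 4 lay lower and 2 higher in every aged library (7.19% and 7.54% of all genes). Their median log2 fold change of 0.36 did not hold its sign: it was -0.52 among genes averaging 50 CPM or more and -0.03 without aged replicate 1, and 0.04 without young replicate 3. The edgeR test called 0 of the 25, and so did DESeq2. At an unadjusted p under 0.05 edgeR had 1 lower and 2 higher (2.04% and 3.63% of all genes). Cltc, the clathrin heavy chain, averaged 548 ± 243 CPM in aged and 938 ± 103 CPM in young libraries, while Clta, a light chain, averaged 275 ± 51.1 and 241 ± 35 CPM in the same order (SD, n = 3 each). Eps15, an adaptor of coated pits and the 1 gene lower at that unadjusted level, averaged 78.8 CPM in aged and 163 CPM in young libraries. The 2 higher ones were Cltb and Ap2m1. Cltb averaged 26.7 CPM in aged and 1.73 CPM in young libraries, without overlap. Ap2m1 averaged 144 and 50.4 CPM in the same order, with overlap. The Dab2 cargo receptor gene Lrp1 averaged 36.9 CPM in aged and 28.6 CPM in young libraries, and Lrp2, the cargo receptor of epithelia, was too low to be tested.

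Around the receptor gene Ednrb few partner genes were measurable, while most of those listed around Folr2 were tested. Of 11 genes of the endothelin system, 5 were tested and 0 called by edgeR or DESeq2. By edgeR, 1 was higher at an unadjusted p under 0.05 (3.63% of all genes), and the median log2 fold change was -0.17. With so few genes that median turned to 0.87 without aged replicate 1, and to 0.69, 0.40 and 0.36 without young replicate 1, 2 and 3. The endothelin genes Edn1, Edn2 and Edn3 were too low to be tested, as was the sister receptor Ednra, at 0.00864 CPM in aged and 0.0747 CPM in young libraries. Gnai2, a G protein subunit gene, averaged 190.4 ± 130.4 CPM in aged and 68.7 ± 20.2 CPM in young libraries, and Gnai3 42.8 ± 46 and 60.2 ± 32.7 CPM in the same order. Of 16 tested genes of folate uptake and one-carbon metabolism, 0 were called by either tool, and 0 passed an unadjusted p under 0.05 (median -0.08, but -1.20 without aged replicate 2 and 0.06 without young replicate 3). Ggh, a folate hydrolase, averaged 202 ± 42.7 CPM in aged and 215 ± 36.5 CPM in young libraries, and Mthfs 115 ± 58.2 and 120.4 ± 49 CPM in the same order.

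Of the partners of the secreted factors and enzymes, edgeR over the 10661 genes likewise called 0. At an unadjusted p under 0.05 it had 2.04% of all genes lower and 3.63% higher. In the IGF and insulin axis (11 tested, median log2 fold change -0.73) 0 passed an unadjusted p under 0.05. Of the 11, 2 lay lower in every aged library, where 7.19% of all genes tested did. The median ran from -1.49 without aged replicate 3 to -0.18 without young replicate 3. One of the 2 genes, the binding protein gene Igfbp4, averaged 50.1 ± 14 CPM in aged and 83.2 ± 13.3 CPM in young libraries. The insulin receptor gene Insr, which overlapped between the ages, averaged 18.5 ± 22.9 and 34.9 ± 28.1 CPM in the same order. The receptor gene Igf1r averaged 4.89 CPM in aged and 26.5 CPM in young libraries (log2 fold change -2.44, SE 1.52). In the Notch pathway, on which Egfl7 is known to act (18 tested, median 0.40), 2 genes, Ncstn and Rfng, were higher at an unadjusted p under 0.05. That median was 0.14 without young replicate 1 and turned to -0.15 among genes with at least 10 CPM in 3 libraries and to -0.47 among genes averaging 50 CPM or more. Ncstn, a subunit of gamma-secretase, averaged 89.3 CPM in aged and 32.8 CPM in young libraries. Psenen, another subunit of it, averaged 435 ± 82.5 CPM in aged and 655 ± 40.6 CPM in young libraries, and the transcription factor gene Rbpj 112 ± 19.4 and 147 ± 61.8 CPM in the same order.

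Coagulation, transglutaminase and fibrinolysis genes (11 tested) had a median of 0.39. That median was 0.08 without young replicate 3 and -0.10 among genes with at least 10 CPM in 3 libraries. Of the 11, 1 was higher at an unadjusted p under 0.05 (3.63% of all genes). It was Serpine2, a serine protease inhibitor, at 169.9 CPM in aged and 38.1 CPM in young libraries (log2 fold change 2.15, SE 0.55, edgeR adjusted p = 0.581). DESeq2 called it higher, as 1 of 117 among 10661 genes, and so did edgeR with no filter, as 1 of 51 among 22680. Pros1, which encodes protein S, averaged 149 ± 72.1 CPM in aged and 136 ± 62 CPM in young libraries, and S100a10 88 ± 22.7 and 127 ± 72.1 CPM in the same order. Carbonyl reductases and related dehydrogenases (21 tested) had a median of 0.05, between -0.10 without aged replicate 2 and 0.37 without young replicate 3. Of the 21, 1 was higher at an unadjusted p under 0.05 (3.63% of all genes). Hpgd averaged 1096 ± 418 CPM in aged and 1671 ± 497 CPM in young libraries, and Akr1a1 354 ± 101 and 343 ± 60.0 CPM in the same order.

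Copper handling genes (15 tested) had a median of -0.37, but -0.10 without aged replicate 2. Of the 15, 1 was lower at an unadjusted p under 0.05 (2.04% of all genes). It was the iron exporter gene Slc40a1, whose exported iron ceruloplasmin oxidises. It averaged 36.2 CPM in aged and 159 CPM in young libraries (log2 fold change -2.13, SE 0.44, edgeR adjusted p = 0.41). DESeq2 called it lower (as it did 0.385% of all genes), and it is also one of the 38 identity genes above. The copper chaperone gene Atox1 averaged 690.1 ± 257 CPM in aged and 889.8 ± 107 CPM in young libraries, and the metallothionein gene Mt1 585 ± 101 and 759 ± 41.9 CPM in the same order. Of the NEDD4 family and its adaptors (12 tested, median -0.54), 1 was lower at an unadjusted p under 0.05 (2.04% of all genes). The median had no stable direction, at -1.68 without young replicate 1, 0.50 without young replicate 2 and 0.03 in limma-voom. The 1 lower gene was Wwp2, the closest relative of Wwp1, at 13.3 CPM in aged and 60.9 CPM in young libraries (log2 fold change -2.20, SE 0.68, edgeR adjusted p = 0.643). Txnip averaged 393 ± 108 CPM in aged and 279 ± 53.6 CPM in young libraries, and Ndfip1 308 ± 117 and 272 ± 99 CPM in the same order.

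Likeness to other genes was measured as the root mean square difference of log2 levels over the 6 libraries, after each gene's mean was taken off, among 2189 genes. For Dab2 the most alike gene was another of the 9, Wwp1 (0.18), followed by Uchl3 (0.18) and Pfdn4 (0.19), against a spread of Dab2 about its own mean of 0.65. For Ednrb the nearest were Ccl2 (0.73), Luc7l3 (0.77) and Itgav (0.80), against its own spread of 1.64, and Dab2 ranked 29 (1.03). For Folr2 they were Eef1a1 (0.07), Smdt1 (0.11) and Rps18 (0.12), against 0.30. For Cbr2 they were Spcs2 (0.11), Atp6v0b (0.11) and Mif (0.13), no closer than its own spread of 0.11, so its levels were too even to single out like genes. Folr2 ranked 264 in likeness to Cbr2 (0.35).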

How the data were processed

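RNA of sorted CAMs was copied with a low-input template-switching kit that does not mark strand and sequenced as single reads, per the labels' protocols. Per the submitters' processing notes, bcl2fastq 2.20, DRAGEN, fastp, Picard and FastQC were run on mm10; the role of each is not given in the sources used. The deposited tables hold estimated counts per gene (not scaled), TPM (the authors' values, corrected for depth and effective length) and other values, the length and effective length in nucleotides, per the file headers. Of 35598 identifiers, 35513 matched GENCODE M21, which gave symbols and coordinates. Estimated counts were rounded, filtered with filterByExpr, scaled by TMM and tested with edgeR 4.0.16 in R 4.3.3 (robust quasi-likelihood F test, aged against young, two-sided, no covariate). P-values were adjusted by Benjamini-Hochberg over 10661 genes and called under 0.05. The SE was derived from F (size of the fold change divided by its root), and 95% intervals use the t quantile. Fold changes are aged minus young.

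Members, lists and tests were chosen with earlier results of these data known. Named genes were the 9, the gate genes, the called members of each list or, with none called, its 2 most abundant, and the 3 genes most alike. The others (Eps15, Cltb, Ap2m1, Lrp1, Lrp2, Lyve1, Cd163, Igf1r, Serpine2, Slc40a1, Wwp2, Ccl24, Cd200r1, Cd209d, Cd209b, Lilra5, Timd4, Cd38, Ctsc, Ncstn, Rfng, the endothelins and Ednra, and the markers) were named after their values were seen. Alternatives were other scalings, filters and dispersions, DESeq2 1.42.0, limma 3.58.1 (voom, and trend on log2(TPM + 1) for a mean TPM of at least 1), a replicate block and each library left out. Ratios of one member to another and scaling by library totals were added after the data were seen.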

Additional observations from a re-analysis of the deposited data

How the results depend on the processing

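Over all genes, 1 was called higher and 0 lower; DESeq2's Wald test had 117 and 41, an unfiltered fit 51 and 11, a fit to genes averaging 50 CPM or more 19 and 6, and 0 and 0 were called in limma-voom and in limma-voom with quality weights. Leaving out a library gave 0 to 2 higher and 0 to 1 lower. Dab2 was called by DESeq2 (-1.20, adjusted p = 0.0292), and over all settings its adjusted p ran from 0.0292 to 0.914. Ednrb was called by DESeq2 (-2.81, adjusted p = 0.00557), with no filter (-2.78) and among genes averaging 50 CPM or more (-2.85), its adjusted p running from 0.00235 to 0.837. Folr2 turned sign on log2(TPM + 1) (0.22), as did F13a1 (0.03), where the median of all genes was also 0.22; relative to it Folr2 was at 0.00, Cbr2 at 0.01, F13a1 at -0.19, Dab2 at -1.04 and Ednrb at -2.34. With a library left out, the ranges were -0.22 to 0.16 for Folr2, -0.01 to 0.13 for Cbr2, -0.45 to 0.11 for F13a1, -1.42 to -1.08 for Dab2 and -3.74 to -2.28 for Ednrb. The causes of these changes were not tested. Dab2, Ednrb, Egfl7, Igf1, Wwp1 and Cp were below 0 under every setting run, but Egfl7 fell outside the fit to genes averaging 50 CPM or more and reached -3.04 in limma-voom with quality weights. On log2(TPM + 1), Ednrb was at -2.12. The replicate numbers shared by the ages did not pair the libraries: same-numbered libraries correlated at -0.01, -0.026 and 0.022 in their deviations from the group means, and not every library correlated best with its own number. With a replicate block, 1 gene was called higher and 0 lower, Dab2 was at -1.23 and Ednrb at -3.03. With 3 libraries an age, the intervals of Folr2, Cbr2, F13a1 and Cp allow changes of up to -0.98 or 0.67 on the log2 scale. They cover the spread between these libraries, and PCR reads without molecular identifiers are not independent molecules.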
